A study of Drosophila melanogaster with 6 samples.

Results

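Messenger RNA levels of the 10 Drosophila melanogaster genes Dop1R1, Dop1R2, Dop2R, DopEcR, Oamb, Octbeta1R, Octbeta2R, Octbeta3R, Oct-TyrR and TyrR, which encode receptors for dopamine, octopamine and tyramine, were followed after knockdown of Drgx in T4/T5 neurons. The genes were chosen by name from a list of amine receptors and matched by FlyBase identifier, and all 10 were found among the 23932 features of the deposited count table. T4/T5 neurons compute the direction of visual motion in the optic lobe, and Drgx encodes a paired-like homeobox transcription factor. Both groups of larvae carried UAS-CD8-GFP and the R23G12-Gal4 driver in 1 copy each, developed at 25 °C and were taken as climbing larvae of the third instar. The control group also carried UAS-cherry-IR, a hairpin against cherry, over the driver chromosome, and the knockdown group carried UAS-DRGX-IR, a hairpin against Drgx, over the chromosome with UAS-CD8-GFP, with 3 libraries each. The hairpins act wherever the driver is active, and the 2 hairpin transgenes thus lie on different chromosomes. GFP-positive cells were sorted from dissociated brains, and the labels do not say how many brains went into a library or whether libraries came from separate crosses, so the p-values measure the spread between these libraries.

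Dopamine, octopamine and tyramine act in insects through G protein-coupled receptors. Receptors that couple to the stimulatory G protein raise cyclic AMP, those that couple to the inhibitory one lower it, and others release calcium from internal stores. Octopamine is the insect counterpart of noradrenaline. In the adult fly it is released during walking and flight and shifts the responses of motion-sensitive visual neurons towards faster motion.

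Library totals ran from 29587960 to 44054609 counts. Drgx itself was at 2110 to 2160 CPM (counts scaled to a common library size) in the control libraries and 663 to 729 CPM in the knockdown libraries, a log2 fold change of −1.60 (SE 0.0512, edgeR adjusted p 7.29e-08). The 9 T4/T5 marker genes were detected in every library, with summed levels of 5000 to 5280 CPM in control and 3340 to 3500 CPM in knockdown. Of them, 4 (Sox102F, dac, SoxN and bi) were called lower, and SoxN (1780 to 1170 CPM) and Sox102F (1150 to 277 CPM) weigh most in the sum. The remaining markers did not pass. acj6 and fd59A had positive log2 fold changes (0.22 and 0.99, edgeR adjusted p 0.071 and 0.177). TfAP-2, grn and ato had negative ones (−0.04, −0.07 and −0.29, edgeR adjusted p 0.789, 0.829 and 0.569). Knockdown replicate 2 stood apart, with 325 of the 9932 tested features at 0 counts against 118 to 171 in the other libraries. The share of features that passed an edgeR adjusted p of 0.05 was 6.21%. At an unadjusted edgeR p under 0.05 the share was 16.4%, and at a DESeq2 adjusted p under 0.05 it was 9.59%.

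The receptor genes were weakly expressed in control neurons, with DopEcR and Octbeta1R well above the other members. Levels between genes were compared per kilobase of merged exons, as TMM-normalised CPM per kilobase. DopEcR, a receptor that responds to dopamine and to ecdysteroids, had the highest control level at 4.21 ± 0.829 CPM per kilobase (SD, n = 3), which was at percentile 30.7 of 8538 tested protein-coding genes. Octbeta1R followed at 2.53 ± 0.745 CPM per kilobase, at percentile 25.3. The median of the tested protein-coding genes in control was 12.9 CPM per kilobase, so every receptor gene was below it. The control ranges of DopEcR (3.29 to 4.91) and Octbeta1R (1.69 to 3.09 CPM per kilobase) did not overlap.

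Below them came a middle group whose control ranges overlapped, so that its order is not separated by these libraries. Oct-TyrR was at 0.583 ± 0.200, Octbeta3R at 0.569 ± 0.142 and Oamb at 0.485 ± 0.288 CPM per kilobase. With the length of the longest transcript in place of merged exons, Oamb moved to 0.654 CPM per kilobase and ahead of the other 2. Octbeta2R and Dop1R1 were lower, at 0.151 ± 0.0680 and 0.138 ± 0.129 CPM per kilobase, and their ranges overlapped too. Dop1R2, Dop2R and TyrR had the lowest control means, at 0.0755, 0.0306 and 0.00140 CPM per kilobase, each with at least 1 control library at 0 counts. Without division by length these means were 0.39, 0.2 and 0.00766 CPM, and the control libraries of Dop1R2 reached 0.851 CPM. A count of 0 allows up to 3 counts, which is 0.0690 CPM in the deepest and 0.102 CPM in the shallowest library, a limit that covers counting error only.

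**Figure D1:**
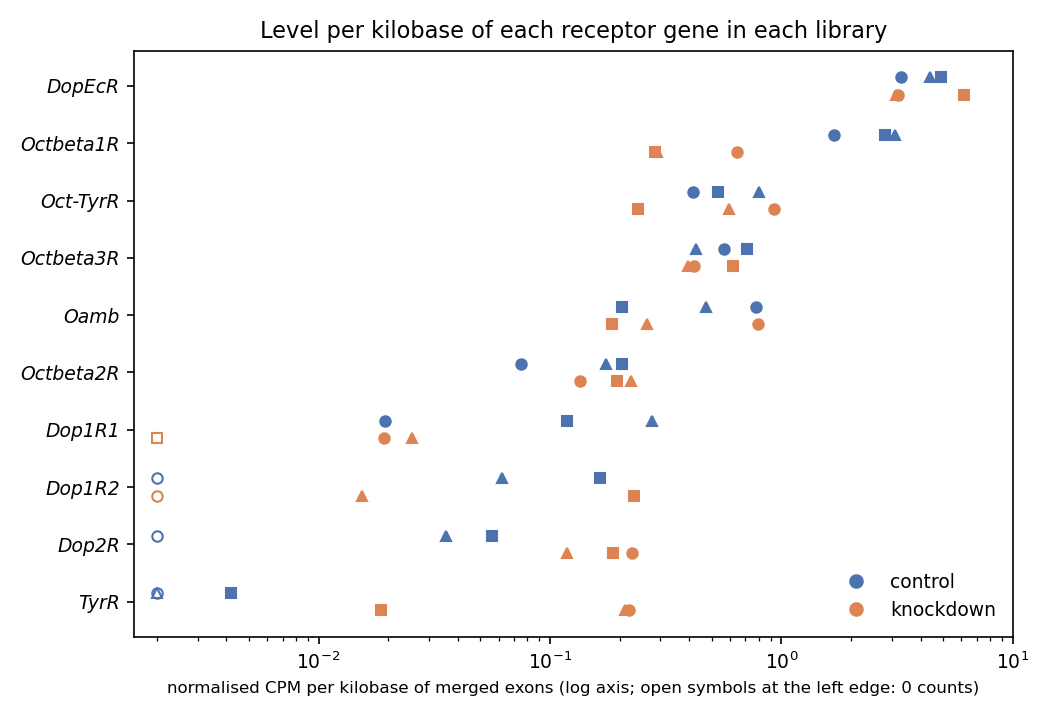
Level of each receptor gene per kilobase of merged exons in each of the 6 libraries, on a log axis in normalised CPM per kilobase. Blue symbols are control and orange symbols knockdown libraries, circles, squares and triangles are replicates 1, 2 and 3, and open symbols at the left edge stand for 0 counts. DopEcR is highest in every library, Octbeta1R stands second in control and among the middle genes in knockdown, and TyrR is at 0 or 0.00419 CPM per kilobase in control and between 0.0186 and 0.219 in knockdown.

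The question put to each gene was whether its level changed when Drgx was knocked down. Of the 9 members that passed the expression filter, 1 passed the threshold over all features tested, Octbeta1R, which was lower. That is 11.1% of 9 genes, beside 6.21% of all 9932 tested features (4.11% lower and 2.10% higher), so the number of calls among the receptors is near that of the whole table. The median log2 fold change of the 9 genes was −0.02, beside 2.7e-05 for all tested features. Knockdown and control values did not overlap for 2 of the 9, Octbeta1R and Dop2R, beside 23.3% of all tested features. Dop2R passed the filter through its knockdown libraries, where it is high, so its lack of overlap is not independent of the filter. TyrR, the tenth member, did not pass the filter and was not tested.

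Among the octopamine receptors, the beta-adrenergic-like receptor gene Octbeta1R fell strongly. Octbeta1R (FBgn0038980) lies on chromosome 3R of BDGP6.54 from 22497215 to 22520078 on the plus strand, with 4 annotated transcripts, and its product has been linked at the larval neuromuscular junction to restraint of synaptic growth. Control replicates 1 to 3 had 9.11, 15.2 and 16.7 CPM of it, and knockdown replicates 1 to 3 had 3.49, 1.53 and 1.56 CPM. Every knockdown library was below every control library, and the lowest control and the highest knockdown library were both replicate 1.

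The mean of Octbeta1R went from 13.7 ± 4.03 to 2.19 ± 1.12 CPM (SD, n = 3 each), or 16.0% of control. Its log2 fold change was −2.64 (SE 0.385, edgeR adjusted p 0.00211), which is 6.23-fold lower with a 95% interval of 3.42-fold to 11.3-fold. These values rest on 292, 661 and 576 counts in control and 113, 45 and 59 counts in knockdown. The adjusted p stayed under 0.05 with each library left out in turn, at log2 fold changes from −3.14 to −2.44. Fewer cells of a type and less RNA per cell cannot be told apart in these bulk samples.

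The other beta-adrenergic-like receptor genes did not pass the test. They are neighbours on 3R, Octbeta3R (FBgn0250910) from 12511570 to 12548229 and Octbeta2R (FBgn0038063) from 12550625 to 12595725, 2396 bp apart on the minus strand. Octbeta2R, known at the larval neuromuscular junction as an octopamine autoreceptor, was at 0.562, 1.54 and 1.31 CPM in control and 1.02, 1.46 and 1.69 CPM in knockdown. Octbeta3R, known for a role in the prothoracic gland at the start of metamorphosis, was at 3.46, 4.35 and 2.61 CPM in control and 2.56, 3.78 and 2.41 CPM in knockdown. In both genes the groups overlapped.

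The log2 fold change of Octbeta2R was 0.29 (SE 0.615, edgeR adjusted p 0.896), with a 95% interval from −1.09 to 1.67. That of Octbeta3R was −0.25 (SE 0.384, edgeR adjusted p 0.841), with a 95% interval from −1.12 to 0.61, so a fall as large as that of Octbeta1R lies outside the intervals of both. Exons of Octbeta2R share 100 bp with the microRNA gene mir-284 and 21 and 26 bp with 2 other noncoding RNAs, all on the same strand, so reads there cannot be told apart by strand.

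Oamb, an alpha1-adrenergic-like octopamine receptor that raises calcium, varied more within groups than between them. Oamb (FBgn0024944, 3R, 20689018 to 20714577, minus strand) was at 4.31, 1.13 and 2.61 CPM in control and 4.38, 1.02 and 1.46 CPM in knockdown. Replicate 1 was the highest and replicate 2 the lowest library in both groups. The means were 2.68 ± 1.59 and 2.29 ± 1.83 CPM (SD, n = 3 each), with a log2 fold change of −0.23 (SE 0.665, edgeR adjusted p 0.931) and a 95% interval from −1.72 to 1.27. It was −1.11 without knockdown replicate 1 (edgeR adjusted p 0.527) and 0.29 without control replicate 1 (edgeR adjusted p 0.935).

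**Figure D2:**
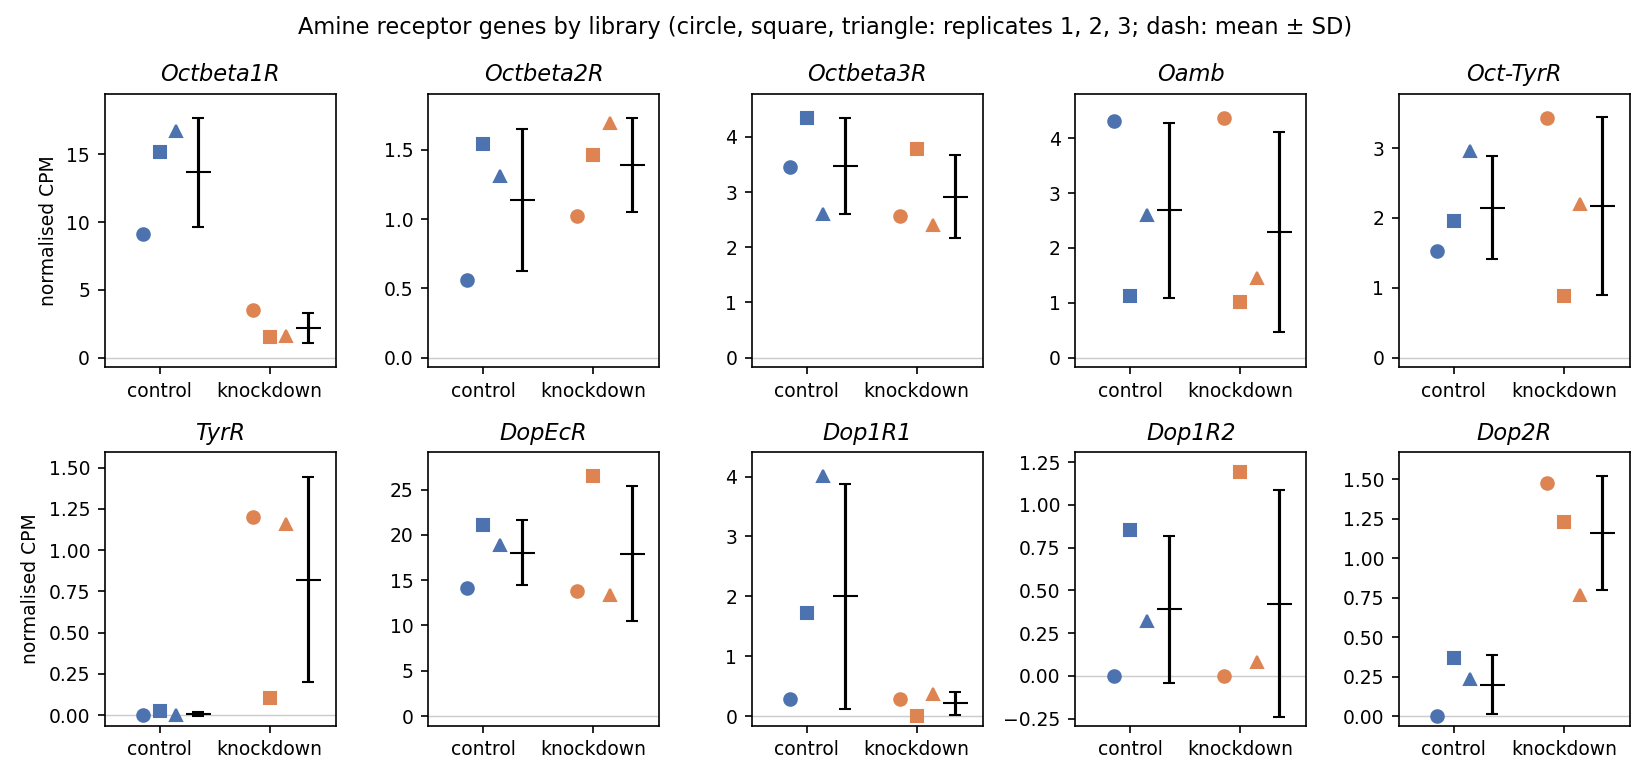
Normalised CPM of the 10 receptor genes in the 3 control (blue) and 3 knockdown (orange) libraries, 1 gene a panel with its own linear axis, and a dash with whiskers for the mean ± SD of each group. The knockdown libraries of Octbeta1R are all below its control libraries, those of Dop2R and TyrR are all above, and the groups overlap in the other 7 panels.

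Of the tyramine receptor genes, Oct-TyrR was expressed in both groups and TyrR was close to absent from the control libraries. Oct-TyrR (FBgn0004514, 3L, 22035003 to 22065279, plus strand) encodes a receptor that prefers tyramine to octopamine and lowers cyclic AMP. It was at 1.53, 1.95 and 2.96 CPM in control and 3.43, 0.886 and 2.20 CPM in knockdown, and knockdown libraries held both its highest and its lowest value. The log2 fold change was 0.02 (SE 0.568, edgeR adjusted p 0.995), with a 95% interval from −1.26 to 1.29.

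TyrR, a receptor selective for tyramine, had counts in each knockdown library and 1 count in all of control. TyrR (FBgn0038542, 3R, 17750129 to 17763188, minus strand) was counted 0, 1 and 0 times in control and 39, 3 and 44 times in knockdown replicates 1 to 3. Knockdown replicates 1 and 3 were at 1.20 and 1.16 CPM, and knockdown replicate 2, the library with the most features at 0, was at 0.102 CPM, the value of the counting floor in that library. Summed over the libraries, 86 counts stood against 1, a ratio of 95 at equal depth with an exact 95% interval from 16.6 to 3800, which covers counting error and not the spread between libraries.

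Because knockdown replicate 2 had 3 counts, TyrR missed the expression filter. With no filter beyond 1 count its edgeR adjusted p was 0.0329 (log2 fold change 6.09), and without knockdown replicate 2 it was 0.0201 (6.60). It also entered the fits that each left out 1 control library, where the edgeR adjusted p was at least 0.128. A gene that enters through the group where it is high is favoured to differ, though not certain to pass. These values therefore describe TyrR, which is outside the main fit, and are not counted among the calls. Dop2R entered the main fit through its knockdown libraries and did not pass there. TyrRII (FBgn0038541), a second tyramine receptor gene 2659 bp from TyrR with no annotated gene between them, had 0 counts in each control library and 5, 0 and 33 counts in knockdown replicates 1, 2 and 3.

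The dopamine receptors gave 1 gene with closely similar means and 3 genes of low level and wide spread. DopEcR (FBgn0035538, 3L, 4367649 to 4380387, minus strand) was at 14.1, 21.1 and 18.9 CPM in control and 13.8, 26.5 and 13.4 CPM in knockdown. Its means were 18 ± 3.56 and 17.9 ± 7.49 CPM (SD, n = 3 each). The log2 fold change was −0.02 (SE 0.279, edgeR adjusted p 0.987), and the 95% interval from −0.64 to 0.61 leaves room for a fold change between 0.641 and 1.53. The highest value was that of knockdown replicate 2, and without that library the log2 fold change was −0.42 (edgeR adjusted p 0.389).

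Dop1R1, a D1-like receptor that raises cyclic AMP and is required in the mushroom body for olfactory learning, had a negative point estimate with a wide interval and did not pass the test. Dop1R1 (FBgn0011582, 3R, 14165379 to 14214810, minus strand) was at 0.281, 1.72 and 4.01 CPM in control and 0.278, 0 and 0.371 CPM in knockdown. Control replicate 1, with 9 counts, sat at the level of the knockdown libraries, while control replicates 2 and 3 had 75 and 138 counts. The log2 fold change was −3.17 (SE 1.21, unadjusted p 0.0269, edgeR adjusted p 0.212). With DESeq2 the adjusted p was 0.0559, and over the other alternatives on 6 libraries it was 0.0635 to 0.395. Without control replicate 3 the log2 fold change was −2.19 (edgeR adjusted p 0.574), less negative than that of Octbeta1R in the same fit (−2.47), and without knockdown replicate 3 it was −3.80 (edgeR adjusted p 0.285).

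Dop2R, a D2-like receptor that lowers cyclic AMP, differed in the other direction and did not pass either. Dop2R (FBgn0053517, X, 20004680 to 20062706, minus strand) was at 0, 0.368 and 0.232 CPM in control and 1.48, 1.23 and 0.768 CPM in knockdown, and the groups did not overlap. It passed the expression filter through its knockdown libraries, which had 48, 36 and 29 counts against 0, 16 and 8 in control. The log2 fold change was 2.49 (SE 1.06, unadjusted p 0.0425, edgeR adjusted p 0.279), and the adjusted p was 0.159 to 0.360 over the alternatives on 6 libraries. With 1 library left out, the log2 fold change ran from 1.93 without control replicate 1 to 3.26 without control replicate 2, with edgeR adjusted p from 0.329 to 0.505.

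Dop1R2, a second D1-like receptor with a known role in forgetting, was detected irregularly. Dop1R2 (FBgn0266137, 3R, 29630304 to 29659984, minus strand) had 0, 37 and 11 counts in control and 0, 35 and 3 counts in knockdown. Both groups held 1 library with no count and 1 library with over 30. The log2 fold change of 0.09 had a 95% interval from −3.51 to 3.69 (edgeR adjusted p 0.988), so a change of several fold in either direction lies inside the interval. Without knockdown replicate 2 it was −3.16 (edgeR adjusted p 0.533).

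**Figure D3:**
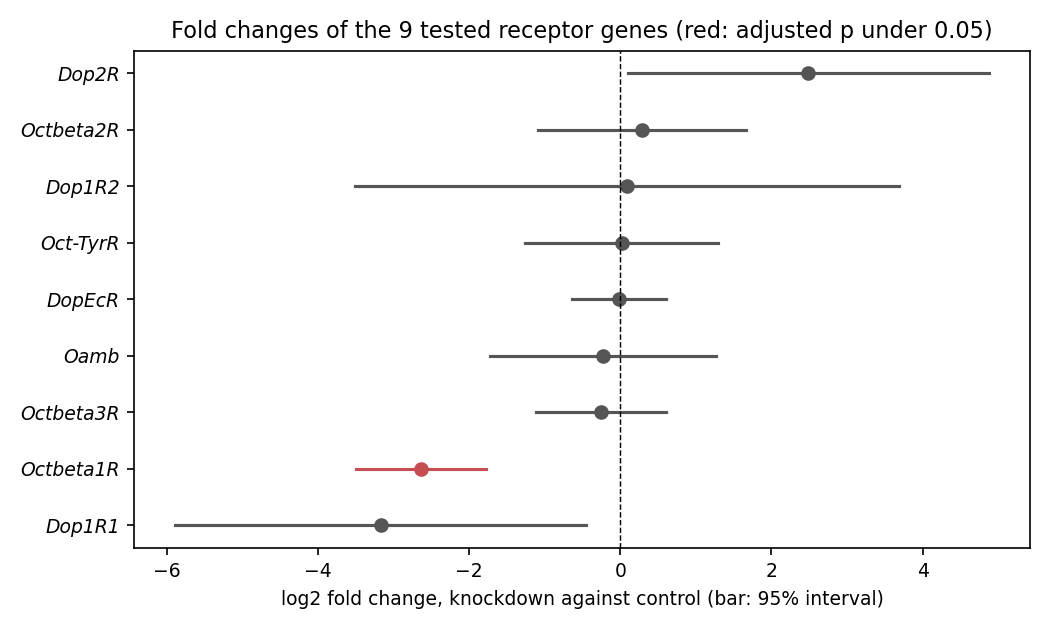
Log2 fold change of the 9 tested receptor genes in knockdown against control, as points with 95% intervals, in order of the estimate, with a dashed line at no change. Octbeta1R, in red at −2.64, is the gene with an adjusted p under 0.05, and the interval of Dop1R1 at −3.17 is wider, from −5.89 to −0.45.

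The precision of these values differed between genes. The biological coefficient of variation estimated by edgeR ran from 0.246 for DopEcR and 0.322 for Octbeta1R to 0.928 for Dop1R1 and 1.36 for Dop1R2. All 9 tested genes were above 0.175, the median of the tested features. The genes with the narrowest intervals, DopEcR, Octbeta3R and Octbeta1R, were also those with the most counts, 3752, 675 and 1746 over the 6 libraries.

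**Figure D4:**
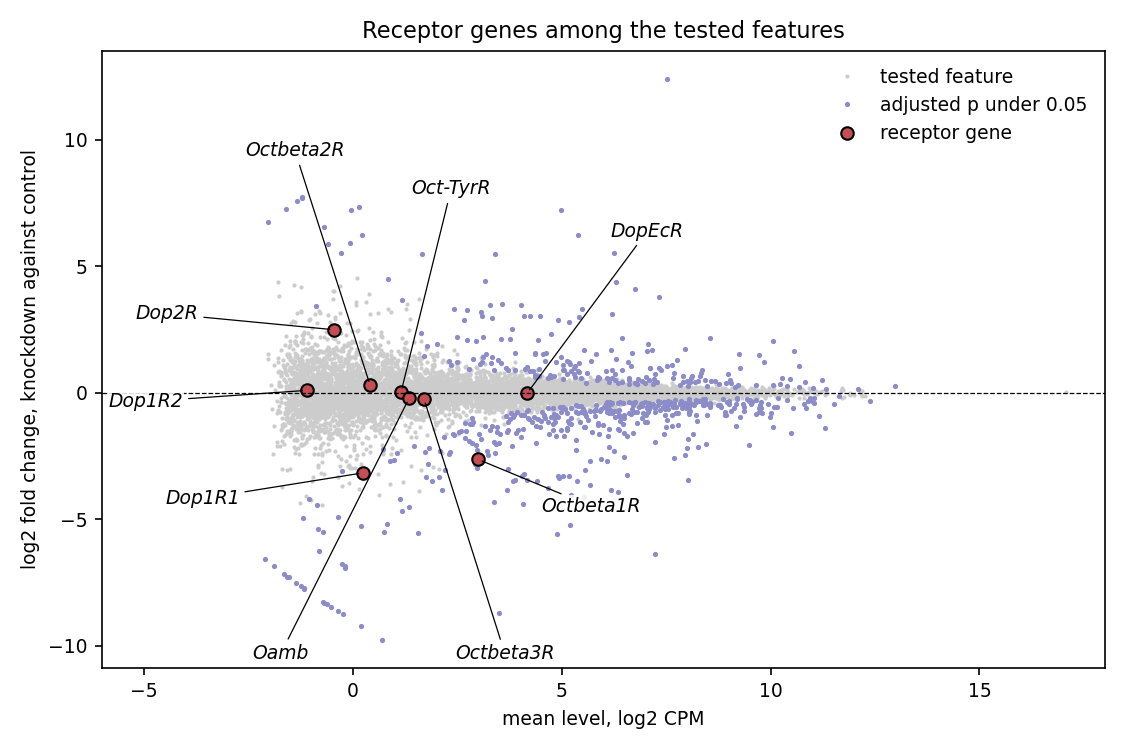
Log2 fold change against mean level in log2 CPM for the 9932 tested features, with features of adjusted p under 0.05 in blue and the 9 tested receptor genes in red. The receptor genes lie in the lower part of the expression range, and Octbeta1R at −2.64 is the receptor gene among the features called lower.

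Octbeta1R also held a smaller part of the receptor transcripts in each knockdown library. As a share of the summed CPM per kilobase of the 10 genes, Octbeta1R made up 24.7%, 28.9% and 31.7% of control replicates 1 to 3, against 9.78%, 3.48% and 5.50% of the knockdown replicates. The 4 octopamine receptors together were at 3.74 ± 0.557 CPM per kilobase in control and 1.48 ± 0.445 in knockdown (SD, n = 3 each). Without Octbeta1R the other 3 summed to 1.21 ± 0.188 and 1.08 ± 0.242 CPM per kilobase, so the groups then overlapped. The 4 dopamine receptors summed to 4.45 ± 1.01 and 4.44 ± 1.87 CPM per kilobase, and the 2 tyramine receptors to 0.585 ± 0.199 and 0.739 ± 0.449. These sums are given as values without a test, and the octopamine sum leaves out Octalpha2R, a further octopamine receptor gene outside the 10 members. Octalpha2R was at 1.96, 1.19 and 1.35 CPM per kilobase in control and 2.27, 1.97 and 4.13 in knockdown. With it added, the octopamine sum was 5.24 ± 0.245 CPM per kilobase in control and 4.27 ± 1.02 in knockdown, and the groups overlapped.

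**Figure D5:**
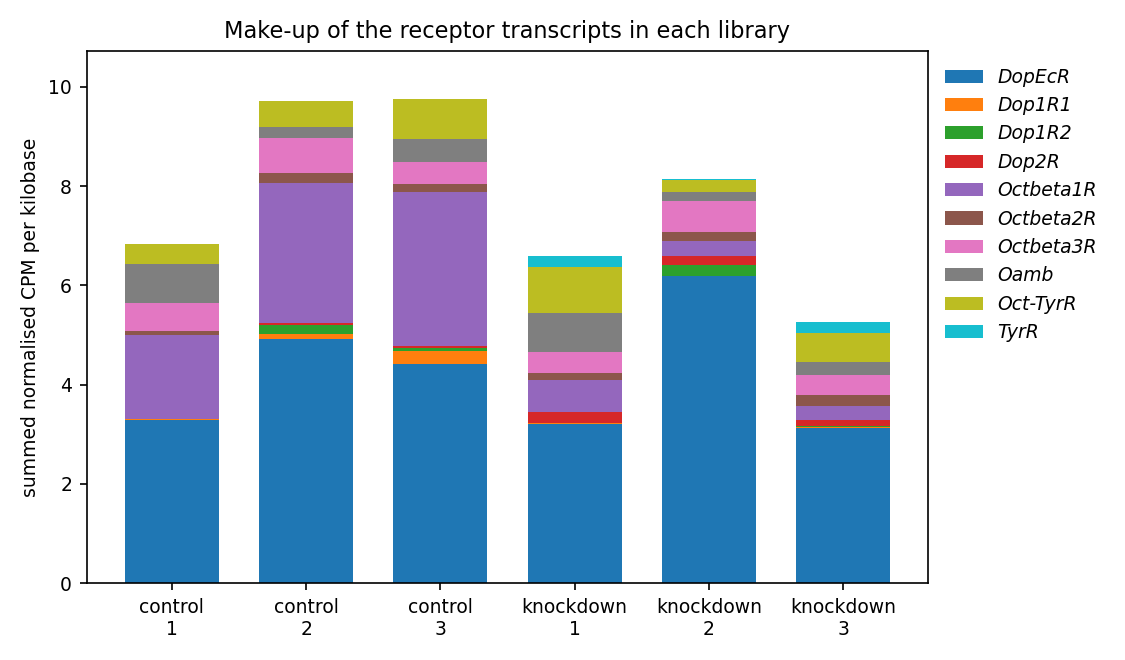
Stacked levels of the 10 receptor genes in normalised CPM per kilobase for each of the 6 libraries, 1 color a gene, with the height of a bar giving their sum. DopEcR is the largest block in every library, and the Octbeta1R block is between 1.69 and 3.09 CPM per kilobase in control and between 0.284 and 0.645 in knockdown.

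The genes beside Octbeta1R did not pass the test. Its nearest tested protein-coding neighbours are CCT1, 5776 bp to the left, at a log2 fold change of 0.19 (edgeR adjusted p 0.134), and CG5346, 9 bp to the right, at 0.77 (edgeR adjusted p 0.241). Across all 10 members, 3 of 20 nearest neighbours (15%, beside 6.21% of all tested features; Octbeta2R and Octbeta3R are each other's neighbour and among the 20) passed: Polr2B beside Dop1R1 (0.41), Obp99a beside Dop1R2 (0.44) and Hsp70Bc beside Octbeta3R (0.95). Hsp70Bc has near-identical copies that share reads, so its value is uncertain. Octbeta1R shares chromosome arm 3R with most of the receptor genes but is not next to another of them.

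By pattern over the 6 libraries, the genes most like Octbeta1R were hfp, can and Sec22, with Pearson's r of log2 CPM of 0.9917, 0.9902 and 0.9889 among 7862 other genes with a mean of at least 50 counts. The points share their libraries and fall into 2 groups, so r is a description. The size of the change differed among them. can fell from 44.2 ± 3.52 to 13.6 ± 3.68 CPM (log2 fold change −1.71, edgeR adjusted p 3.89e-04), while hfp was at −0.23 (edgeR adjusted p 0.0574) and Sec22 at −0.30 (edgeR adjusted p 0.131).

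Genes that make, load or clear amines were examined next, since several of them mark amine neurons. Of 15 listed genes, 1 is not analysed here, 10 were tested and 0 passed with edgeR, DESeq2 or limma-voom. An unadjusted p under 0.05 was found for 1 of the 10 (Tdc2), beside 16.4% of all tested features. The summed level of 8 markers of amine neurons was 24.5 to 31.3 CPM in control and 19.2 to 28.1 CPM in knockdown, with overlapping ranges. Most of it was Tbh, the enzyme that converts tyramine to octopamine, at 18.8 ± 2.80 and 13.1 ± 4.78 CPM (SD, n = 3 each; log2 fold change −0.52, edgeR adjusted p 0.385).

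The other defining markers were low. Tdc2, the neuronal tyrosine decarboxylase that makes tyramine, was at 0.544 ± 0.361 and 1.77 ± 0.834 CPM (log2 fold change 1.70, edgeR adjusted p 0.272), without overlap. The vesicular transporter gene Vmat was at 3.47 ± 0.656 and 4.39 ± 1.05 CPM, and shares 2129 bp of exon with CG13330. ple, which encodes the rate-limiting enzyme of dopamine synthesis, had 40, 18 and 10 counts in control and 0, 0 and 9 in knockdown. The dopamine transporter gene DAT had 22, 52 and 0 counts in control and 0 in each knockdown library, and the serotonin transporter gene SerT had 28, 18 and 0 against 2, 1 and 50.

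Markers of glia and Kenyon cells included called genes. Of 9 glial markers, 6 had an unadjusted p under 0.05, beside 16.4% of all tested features, and 4 were called by DESeq2, beside 9.59%. By edgeR, beside 6.21%, and by limma-voom, 2 were called higher. They were Gs2 (log2 fold change 0.75, edgeR adjusted p 0.0104) and nrv2 (0.38, edgeR adjusted p 0.00408). Gs2 missed the threshold without control replicate 1 or 3 or knockdown replicate 1 (edgeR adjusted p 0.0527 to 0.0578). The summed level of the glial markers was 614 to 692 CPM in control and 818 to 890 CPM in knockdown, without overlap. Most of it was nrv2, at 460 ± 22.3 and 600 ± 29.6 CPM. By contrast, repo, which defines most glia, was at 9.74 ± 2.66 and 9.82 ± 1.85 CPM. Gat alone of the list had a negative log2 fold change, from 13.6 ± 1.24 to 8.92 ± 5.38 CPM (−0.60, edgeR adjusted p 0.545). The 3 Kenyon cell markers summed to 13.6 to 21.1 CPM in control and 23.8 to 30.2 CPM in knockdown, and sNPF was called higher (1.13, edgeR adjusted p 0.0306) but not with any 1 of 5 libraries left out (0.0529 to 0.129) or with the replicate number as a term (0.0564). Whether these marker transcripts came from glia or Kenyon cells was not tested, nor was the part of such cells in the receptor values.

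Hemocyte, photoreceptor and muscle markers were scarce and progenitor markers were present in both groups. The 5 hemocyte markers summed to 0.936 to 3.48 CPM in control and 3.86 to 6.96 CPM in knockdown, with NimC1 and srp at 0 counts, Hml at 0 in all but 1 library and Ppn called higher (4.50, edgeR adjusted p 0.00425). Ppn had 1, 6 and 9 counts in control and 109, 81 and 146 in knockdown, so it passed the filter through the knockdown libraries, where it is high. Photoreceptor markers summed to at most 3.21 CPM, with ninaE and trp at 0 counts, and muscle markers to at most 6.23 CPM. Progenitor markers summed to 353 to 402 CPM and 406 to 421 CPM. In the progenitor list 0 of 10 passed edgeR, 1 passed DESeq2 (beside 9.59% of all tested features) and 0 passed limma-voom. An unadjusted p under 0.05 was found for 3 of the 10, beside 16.4% of all tested features.

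Among genes that act with the receptors, the edgeR calls of greatest size were a serotonin receptor and a pair of phosphodiesterases. Of 69 genes in 8 lists of the amine pathway, 56 were tested and 5 passed, 2 higher and 3 lower, which is 8.93% beside the 6.21% of all tested features. Their median log2 fold change was −0.05. With DESeq2 the number that passed was 10, 5 in each direction, which is 17.9% beside 9.59% of all tested features. The higher ones include Ac76E (DESeq2 log2 fold change 4.62), with 0, 10 and 0 counts in control and 33, 85 and 75 in knockdown. They also include Pka-C3 (DESeq2 log2 fold change 3.75), with 0, 1 and 9 counts in control and 21, 51 and 52 in knockdown. Both passed the expression filter through the knockdown libraries, where they are high. The lists were chosen with earlier results of these data known, so these shares describe the lists and test no enrichment. For the counts by list below, the shares of all tested features are 6.21% by edgeR, 9.59% by DESeq2 and 16.4% at an unadjusted edgeR p under 0.05. By limma-voom, 690 of the 9932 tested features were called.

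Of 7 other amine receptor genes, 4 were tested, of which 1 passed edgeR and 2 passed DESeq2. 5-HT1A, a serotonin receptor that lowers cyclic AMP, fell from 70.8 ± 3.31 to 1.88 ± 0.583 CPM (log2 fold change −5.25, SE 0.212, edgeR adjusted p 2.43e-07). Octalpha2R, an alpha2-adrenergic-like octopamine receptor, was at 14.7 ± 3.99 and 27.3 ± 11.5 CPM (0.89, SE 0.293, edgeR adjusted p 0.132; DESeq2 adjusted p 0.0283). Its groups did not overlap, though the highest control and the lowest knockdown library were both at 19.3 CPM after rounding, and its highest library was knockdown replicate 3. The remaining tested genes, 5-HT1B and 5-HT2A, were at −0.55 (edgeR adjusted p 0.464) and −1.35 (edgeR adjusted p 0.492).

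The G proteins that the receptors share were abundant, and 0 of 10 tested subunit genes passed edgeR, with 2 at an unadjusted p under 0.05, 1 called by DESeq2 and 1 by limma-voom. The most abundant were Gbeta13F at 1740 ± 102 and 1510 ± 65.1 CPM (log2 fold change −0.20, edgeR adjusted p 0.0689), Galphao at 861 ± 38.9 and 782 ± 16.8 CPM (−0.14, edgeR adjusted p 0.198) and Ggamma1 at 567 ± 32.2 and 592 ± 14.4 CPM (0.06, edgeR adjusted p 0.713). Of the receptor kinases, arrestins and RGS proteins, 1 of 5 tested passed edgeR and limma-voom, 2 passed DESeq2 and 2 had an unadjusted p under 0.05. DESeq2 added krz (−0.28, DESeq2 adjusted p 0.034). The gene called by edgeR was loco, an RGS protein gene also known from glia. The level of loco rose from 26.4 ± 5.50 to 47.3 ± 4.08 CPM (0.84, edgeR adjusted p 0.0116). It missed the threshold without control replicate 2 (0.0694) or knockdown replicate 1 (0.0549). It shares 1032 bp of exon with an antisense RNA gene.

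Downstream, the edgeR calls were at the breakdown of cyclic nucleotides and at an anchoring protein. Of 6 phosphodiesterase genes, Pde1c fell from 69.8 ± 9.65 to 4.16 ± 0.522 CPM (log2 fold change −4.06, SE 0.166, edgeR adjusted p 2.56e-07) and Pde9 from 88.2 ± 6.09 to 13.6 ± 0.662 CPM (−2.69, SE 0.114, edgeR adjusted p 3.38e-07). dnc, the cyclic AMP phosphodiesterase known from learning mutants, was at 213 ± 28.1 and 198 ± 28.6 CPM (−0.11, edgeR adjusted p 0.783). Pde1c shares 332 bp of exon with an antisense noncoding gene.

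Of the adenylyl cyclases, which make cyclic AMP, 0 of 5 passed edgeR or limma-voom, 1 passed DESeq2 and 1 had an unadjusted p under 0.05. The most abundant, rut and Ac3, were at log2 fold changes of −0.13 (edgeR adjusted p 0.744) and 0.02 (edgeR adjusted p 0.962). Among 10 tested genes of protein kinase A, its anchors and CREB, 5 had an unadjusted p under 0.05, beside 16.4% of all tested features. Of these, Pka-R2 and Crtc had negative log2 fold changes (−0.35 and −0.3). CrebA, Akap200 and Pka-C3 had positive ones (0.84, 0.19 and 3.69). DESeq2 called 2 of the 10, Pka-C3 and Akap200, and edgeR and limma-voom called 1, Akap200. Akap200 rose from 1930 ± 17.2 to 2200 ± 7.39 CPM (0.19, edgeR adjusted p 0.0131). It missed the threshold without control replicate 2 or 3 or knockdown replicate 3 (0.0516 to 0.0671) and shares 212 bp of exon with grk. Of 6 tested genes of phospholipase C and calcium release, 0 passed edgeR, DESeq2 or limma-voom, and 0 had an unadjusted p under 0.05.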

How the data were processed

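The authors deposited 1 table of raw counts per FlyBase feature, with 1 column per library. STAR, DESeq2 and the build BDGP6 are named in the submitters' processing notes, and the counting program, annotation release and strand setting are not given in the sources used here. Per the labels' protocols, libraries were made with SMART-Seq v4 from total RNA of sorted cells, so counts come from amplified reads without molecular tags. Of 23932 features, 23851 matched the Ensembl 115 annotation of BDGP6.54 by identifier. Of the listed symbols, 2 were matched through the RefSeq gene table.

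Features were kept with filterByExpr (minimum 10 counts) of edgeR 4.0.16 in R 4.3.3, which left 9932 of 15551 features with any count. TMM factors ran from 0.973 to 1.03. Groups were compared with edgeR's quasi-likelihood F test on 6 libraries with group as the only term, Benjamini-Hochberg adjustment over all tested features and a threshold of 0.05. Standard errors are the absolute log2 fold change divided by the root of the F statistic. Levels are given in CPM after TMM scaling, as mean ± SD. No exact permutation test is given, since 0.1 is the smallest p that 3 against 3 libraries allow. Alternatives were other scalings, other filters, DESeq2 1.42.0, voom of limma 3.58.1, the replicate number as a term and each library left out. The scripts were tested on simulated data.

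The members and gene lists were chosen with earlier results of these data known. Genes named are Drgx, the 10 members, called list members, up to 3 abundant members of a list, defining markers of amine neurons and glia, and the 3 genes most like the called member in log2 CPM (prior count 2). Neighbours of the members, TyrRII, and other listed genes given as values were named after their values were seen.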

Additional observations from a re-analysis of the deposited data

How the results depend on the processing

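Octbeta1R kept its direction and its adjusted p under 0.05 in each alternative on 6 libraries (log2 fold change −2.73 to −2.60) and with each library left out (−3.14 to −2.44). The number of members called was 1, except 2 with no filter beyond 1 count in edgeR, 2 with DESeq2 and no filter beyond 1 count (an alternative chosen after seeing the data), and 1 to 2 with 1 library left out. In each case of 2 the added gene was TyrR, which these settings admit to the test, and knockdown replicate 2 was the library whose omission gave 2. No other member was called under any alternative run. Members that did not pass could change sign between alternatives, most of all Dop1R2, at 0.09 and, without knockdown replicate 2, at −3.16 (edgeR adjusted p 0.533). Over all features, 617 calls became 952 with DESeq2, 1010 with DESeq2 and no filter, and 399 to 556 with 1 library left out, lowest without control replicate 2. Pathway calls went from 5 to 10 with DESeq2, 11 with DESeq2 and no filter, and 4 to 6 with 1 library left out. The cause of these shifts with DESeq2 was not tested.

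The replicate numbers are shared by both groups, but nothing in the labels says that they pair libraries, and the deviations of same-numbered libraries from their group means correlated at 0.0246, −0.017 and −0.0591. With the replicate number as a block, 556 features, 1 member and 6 pathway genes were called, and Octbeta1R was at −2.70 (edgeR adjusted p 0.0111). Dop1R1, Dop1R2, Dop2R and TyrR each had at least 1 library at 0 counts, and the spread between libraries of similar depth was wide for the first 3 (biological coefficient of variation 0.787 to 1.36).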
